A study of Mus musculus with 17 samples.

Results

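The choroid plexus genes described here are 10 genes chosen by name from the 55385 in the count table: Clic6, Kcne2, Ttr, Folr1, Kl, Aqp1, Kcnj13, Otx2, Sostdc1 and Slc4a5. They were followed across 17 mouse hippocampi, 1 library of polyadenylated RNA per mouse. Clic6 and Kcne2 lie in the stretch of chromosome 16 that is duplicated in Dp16 mice, a Down syndrome model, and the other 8 lie on other chromosomes. The 3 groups were Dp16_2xIFNRs mice (n = 5, 3 females and 2 males), which carry the Dp16 duplication but the normal gene dosage of the interferon receptors, Dp16 mice (n = 6, 3 females and 3 males), which carry the duplication alone, and wild-type C57BL/6J mice (WT, n = 6, 3 females and 3 males). All mice were untreated and 17.1 to 18 weeks old. The labels do not say whether the groups were littermates. The duplication is present in every cell of the body, so that no cell type is singled out by the model.

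The choroid plexus is a fold of vascularised epithelium that hangs into the brain's ventricles and secretes the cerebrospinal fluid. Its epithelial cells are joined by tight junctions, carry ion and water transporters in the membrane that faces the ventricle, and export carrier proteins and hormones into the fluid. It is not part of the hippocampus but lies against its fimbria, so a dissected hippocampus can carry more or less of it. In such bulk tissue, fewer epithelial cells and less RNA per cell cannot be told apart.

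Every member passed the filter on low counts, which kept 18983 genes. Total counts per library were similar, at 30.4 to 33.1 M (M, mega). Per mouse, the choroid plexus level, the mean log2 CPM of the 8 members outside the segment (CPM, counts per M counts after TMM scaling), put 3 libraries far below the rest, 1 in each group. Dp16_2xIFNRs mouse 5 lay 19.7-fold, Dp16 mouse 6 31.5-fold and WT mouse 6 30.8-fold under the median library. The other 14 libraries lay within 0.60 of that median on the log2 scale. Results are therefore given over 17 and over these 14 libraries.

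By position (GRCm38, GENCODE release 21), Kcne2 (ENSMUSG00000039672.12) occupies chromosome 16 from 92292389 to 92298129 and Clic6 (ENSMUSG00000022949.9) from 92485736 to 92541243, both on the plus strand. They start 727 and 920 kb past the end of Ifngr2, the last gene of the interferon receptor cluster, and so lie outside that cluster. Kcne2 is a small subunit that joins potassium channels such as Kcnq1 and changes their gating, and in the choroid plexus it is found in the membrane facing the ventricle. Clic6 belongs to the chloride intracellular channel family. The RefSeq promoter table (GRCm38.p6, 250 bases before to 50 after a start) holds windows for 6 members, 10 windows in all. The first Kcne2 window is shown because this gene is one of the pair whose copy number differs. One of the Otx2 windows is shown because it alone among the 10 holds the letters TAATCC, a core recognised by Otx2 itself, searched on both strands. The capitals mark the match, which starts 211 bases before the start and reads GGATTA on the printed strand.
Kcne2 promoter, chr16:92292139-92292438, plus strand: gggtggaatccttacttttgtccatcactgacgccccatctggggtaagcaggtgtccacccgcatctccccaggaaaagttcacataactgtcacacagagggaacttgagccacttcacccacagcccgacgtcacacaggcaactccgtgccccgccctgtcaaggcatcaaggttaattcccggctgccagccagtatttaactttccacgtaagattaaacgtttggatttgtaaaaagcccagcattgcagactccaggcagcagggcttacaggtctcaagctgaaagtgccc
Otx2 promoter, chr14:48665060-48665359, minus strand: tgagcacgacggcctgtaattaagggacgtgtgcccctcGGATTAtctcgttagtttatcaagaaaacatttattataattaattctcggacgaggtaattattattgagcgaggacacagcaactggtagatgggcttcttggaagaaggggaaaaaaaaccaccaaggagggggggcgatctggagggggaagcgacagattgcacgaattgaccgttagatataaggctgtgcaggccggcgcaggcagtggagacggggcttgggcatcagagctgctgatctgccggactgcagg
Of all 32851 promoter windows, 2320 (7.06%) hold these letters on either strand. The match is a description and does not show a binding site.

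Levels of different genes were compared per length, in the authors' deposited RPKM (reads per kilobase per megaread), over the 14 libraries. Ttr, which encodes transthyretin, the carrier of thyroid hormone that the epithelium secretes, stood far above the rest. It had 3170, 2750, 3190 and 2170 RPKM in 4 Dp16_2xIFNRs mice, and averaged 2650 ± 744 RPKM in Dp16 mice (SD, n = 5) and 3800 ± 840 in WT mice (n = 5). Its reads made up 0.203 to 0.610% of all counts in these libraries, against 0.00294 to 0.00643% in the 3 low ones. The other 9 members were between 4.50 and 35.6 RPKM by group mean.

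The order of these 9 differed between the groups in the places of Clic6 and Kcne2. In Dp16_2xIFNRs mice Clic6 was the highest of the 9 at 35.3 ± 6.43 RPKM, ahead of Kl, the co-receptor of fibroblast growth factor 23 and an anti-ageing factor, at 32.3 ± 4.43 RPKM. In Dp16 mice Clic6 averaged 29.7 ± 10 and Kl 26.7 ± 6.63 RPKM. In WT mice the order of the pair was turned, with Clic6 at 25 ± 4.18 and Kl at 35.6 ± 5.91 RPKM. The gap between them was smaller than the larger of their SDs in both groups with the duplication and wider than it in WT mice. Kcne2 averaged 24.5 ± 4.03 RPKM in Dp16_2xIFNRs mice, 21.3 ± 6.86 in Dp16 mice and 16.9 ± 3.29 in WT mice, a place above Kcnj13 in both groups with the duplication and below Folr1 in WT mice.

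The remaining members kept one order in every group. Kcnj13, an inward rectifier potassium channel of the epithelium's apical membrane, averaged 23.8 ± 4.33 RPKM in Dp16_2xIFNRs mice, 18.6 ± 4.95 in Dp16 mice and 21.8 ± 2.75 in WT mice. Folr1, the folate receptor that carries folate across the epithelium, averaged 17.4 ± 3.06 RPKM in Dp16_2xIFNRs, 14.9 ± 5.45 in Dp16 and 19.5 ± 5.12 in WT mice. Sostdc1, a secreted antagonist of BMP and Wnt signalling, averaged 16 ± 4.29 RPKM in Dp16_2xIFNRs, 12.3 ± 2.72 in Dp16 and 13.6 ± 3.22 in WT mice. The lowest 3 were a water channel, a transcription factor and a transporter. Aqp1, the water channel of the apical membrane, averaged 8.59 ± 1.24 RPKM in Dp16_2xIFNRs, 6.98 ± 1.65 in Dp16 and 9.89 ± 2.26 in WT mice. Otx2, the homeodomain factor needed to form and maintain the choroid plexus, averaged 6.12 ± 1.12 RPKM in Dp16_2xIFNRs, 4.55 ± 1.48 in Dp16 and 6.17 ± 0.819 in WT mice. Slc4a5, a sodium bicarbonate cotransporter, averaged 5.26 ± 0.892 RPKM in Dp16_2xIFNRs, 4.5 ± 1.49 in Dp16 and 5.66 ± 0.804 in WT mice. Neighbours whose means differed by less than the larger of their SDs were Clic6 and Kl, Kcne2 and Kcnj13, and Folr1 and Sostdc1 in Dp16_2xIFNRs mice. In Dp16 mice they were all neighbours from Clic6 down to Sostdc1, and in WT mice all from Clic6 down to Kcne2. Otx2 and Slc4a5 were such neighbours in every group. Kcnj13 overlaps Gigyf2, and Folr1 overlaps Anapc15, on the opposite strand, and the strand setting of the counting is not given in the sources used here, so these levels are less certain.

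The members varied between mice far more than most genes. The SD of log2 CPM over 17 libraries was 2.55 for Kcne2 and 2.55 for Ttr, which ranked 7 and 8 among all 18983 tested genes, and 2.32 for Slc4a5, which ranked 11. At the low end were Kl and Sostdc1, with 1.18 each and ranks of 115 and 117, against a median of 0.19 over all tested genes. From the lowest to the highest library, Kcne2 spanned 440-fold and Kl 12-fold. Without the 3 low libraries the spans were 2.08-fold (Kcnj13) to 3.45-fold (Folr1). The SD within genotype was then 0.26 to 0.43, against a median of 0.17 over all genes, and for each member between 16.9 and 33.5% of tested genes had a larger one.

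The 3 low libraries retained unequal shares of the members. Relative to the median of the other mice of its genotype, Kl stood at 12.9% in Dp16_2xIFNRs mouse 5, 14.8% in Dp16 mouse 6 and 12.4% in WT mouse 6. Sostdc1 stood at 14.9%, 13.9% and 12.2% in the same mice. These are the highest shares of the 10, and no other member exceeded 6.24%. Kcne2 stood at 1.42%, 1.42% and 0.418%, with 19, 17 and 4 counts (95% Poisson intervals 11.4 to 29.7, 9.9 to 27.2 and 1.09 to 10.2, which cover counting error only). Clic6, with 213, 148 and 74 counts, stood at 4.90%, 4.21% and 2.78%. Of the remaining 6, Ttr was at 0.727 to 1.90%, and Slc4a5 at 1.29 to 1.63%.

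**Figure D1:**
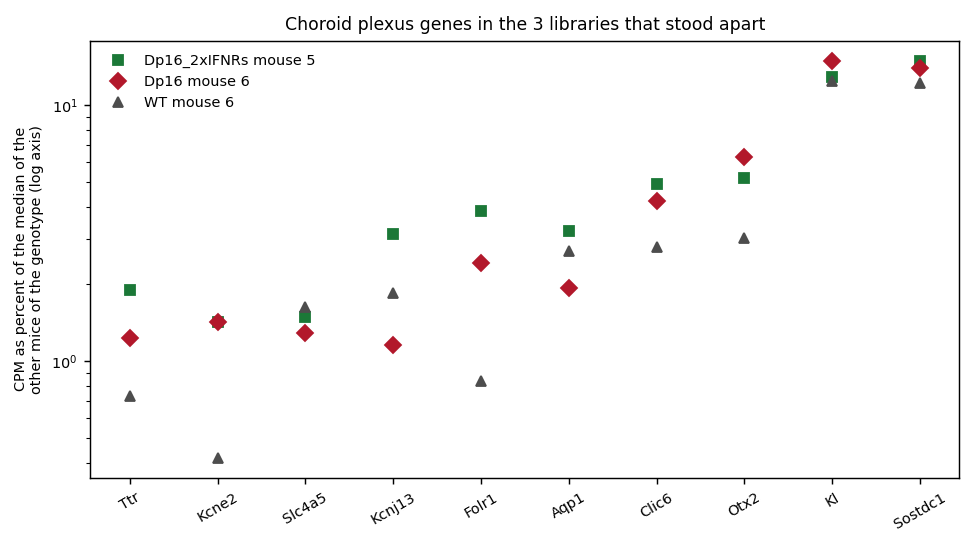
Level of each member in Dp16_2xIFNRs mouse 5, Dp16 mouse 6 and WT mouse 6, as CPM in percent of the median of the other mice of the same genotype (log axis). Points stand for single libraries. Kl and Sostdc1 stand at 12.2 to 14.9%, and the other 8 members at 6.24% or less.

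By summed RPKM, markers of neurons, fibroblasts and red blood cells in the 3 low libraries lay within the range of the other 14. Those of ependymal cells lay below it in Dp16 mouse 6 and WT mouse 6, and those of endothelium in Dp16 mouse 6. The summed RPKM of 8 hippocampal neuron genes was 274 in Dp16_2xIFNRs mouse 5, 243 in Dp16 mouse 6 and 273 in WT mouse 6, and 191 to 276 in the other 14 libraries. For 10 ependymal and ciliated cell genes it was 29.1, 19.3 and 14.7, against 22.2 to 48.7, and for 10 meningeal fibroblast genes 50.1, 39.5 and 46.8, against 33.3 to 73.4. For 6 endothelial genes it was 54.9, 38.5 and 63.2, against 45.2 to 66.9, and for the red blood cell genes 60.3, 95.2 and 55.1, against 36.9 to 107. Such sums are set mostly by abundant genes, as by Dcn (mean 28.2 RPKM) among the fibroblast genes and Cldn5 (26.4) among the endothelial ones. Single genes differed in Pearson r with the choroid plexus level. Over 17 libraries it ran from -0.222 (Dcn) to 0.693 (Ogn) for fibroblast genes and from -0.104 (Cldn5) to 0.781 (Plvap) for endothelial genes. Over 14 it ran from -0.465 (Dcn) to 0.434 (Lum) and from -0.403 (Flt1) to 0.746 (Plvap). The part of any of these cell types in the low level was not tested. The 10 members together summed to 64.6, 38.1 and 32.3 RPKM in the 3 libraries and to 1800 to 5340 RPKM in the others. Of 6 genes of thalamus and habenula, the sum reached 94.9 RPKM in WT mouse 4, and at most 26.4 RPKM in every other library.

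The members were set beside 24 other genes of choroid plexus epithelium. This list was chosen with earlier results of these data known, so it is not an independent check of the label. All 24 were tested and all had r of at least 0.9 with the choroid plexus level over 17 libraries, 22 of at least 0.95 and 8 of at least 0.99. Among the 15616 genes that averaged 1 CPM or more, 186 reached 0.9 and 19 reached 0.99. A high r was not particular to the epithelium list. Among the ependymal and ciliated cell genes r was 0.920 for Pifo, 0.894 for Cfap126 and 0.852 for Foxj1, and went down to -0.029 for Fam183b. These correlations are descriptions, since the 3 low libraries set most of the spread. Over the 14 libraries the r of the 24 genes was lower, from 0.652 for Prlr to 0.972 for Enpp2. The 10 named genes outside the members with the highest r were Mfrp (0.9982), Enpp2 (0.9950), Ace (0.9943), F5 (0.9941), Rdh5 (0.9938), Slc2a12 (0.9937), Tmem72 (0.9917), Cldn2 (0.9914), Steap1 (0.9911) and Col8a1 (0.9910). Over the 14 libraries their r was 0.820 to 0.972. Enpp2 is the secreted enzyme autotaxin and Cldn2 a tight junction protein of leaky epithelia. Mfrp and Slc2a12 were not on the list of 24.

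Clic6 and Kcne2 were then set beside Ttr, as members that vary from mouse to mouse. Because 3 libraries stand apart, no correlation with Ttr over all 17 is given. Over the 14 libraries, log2 CPM of Folr1 followed that of Ttr most closely, with r = 0.934 and rho = 0.881 (permutation, adjusted p = 9e-05 and 0.00036 over 9 relations, r = 0.860 without the 2 libraries farthest from the median). Aqp1 had r = 0.910, Kl 0.884, Slc4a5 0.874, Otx2 0.817 and Kcnj13 0.710 (highest permutation adjusted p = 0.00669), with rho between 0.736 and 0.868 (highest permutation adjusted p = 0.00597). Sostdc1 had r = 0.617 and rho = 0.648 (permutation, adjusted p = 0.0240 and 0.0177), which rested on the 2 farthest libraries, since r was 0.342 without them. Clic6 had r = 0.392 and rho = 0.305 (permutation, adjusted p = 0.187 and 0.325), and Kcne2 r = 0.273 and rho = 0.266 (permutation, adjusted p = 0.347 and 0.358).

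The picture for the pair differed within genotypes. As deviations from the genotype means over the same 14 libraries, Clic6 followed Ttr with r = 0.954 and rho = 0.960 (permutation, adjusted p = 1.8e-05 and 4.5e-05), and r was 0.918 without the 2 farthest libraries. Kcne2 did so with r = 0.901 and rho = 0.846 (permutation, adjusted p = 6e-05 and 0.000304), and r was 0.809 without them. All 45 pairs of members had a positive r of such deviations, from 0.681 for Sostdc1 with Kcnj13 to 0.984 for Folr1 with Ttr, with a median of 0.877.

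Genotypes were first compared gene by gene. No member passed the test in any comparison. Over 17 libraries the groups overlapped for all 10 members, where 0.99% of all genes had groups apart in Dp16 against WT, 2.17% in Dp16_2xIFNRs against WT and 0.616% in Dp16_2xIFNRs against Dp16. With a low library in each group this overlap was bound to follow, so nothing is read from it. Clic6 had 148, 136, 143, 95.8 and 6.83 CPM in Dp16_2xIFNRs mice. It ranged from 4.70 through a median of 98.7 to 168 CPM in Dp16 mice, and from 2.37 through 84.6 to 120 CPM in WT mice. The lowest value of each group is that of the low library, and the others of Dp16 (72.1 to 168 CPM) lay around those of WT (83.4 to 120 CPM).

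Kcne2 had 43.5, 42.1, 50.7, 34.0 and 0.609 CPM in Dp16_2xIFNRs mice. It ranged from 0.540 through a median of 34.2 to 56.2 CPM in Dp16 mice, and from 0.128 through 28.3 to 38.3 CPM in WT mice. Here too the groups overlapped, with 24.5 to 56.2 CPM in Dp16 and 22.8 to 38.3 CPM in WT mice outside the low libraries. Ttr stood the other way. Outside the low libraries its median was 3430 CPM in Dp16_2xIFNRs mice (2550 to 3780, n = 4), 3020 in Dp16 mice (2090 to 4380, n = 5) and 4170 in WT mice (3570 to 6030, n = 5), and these ranges overlapped too.

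**Figure D2:**
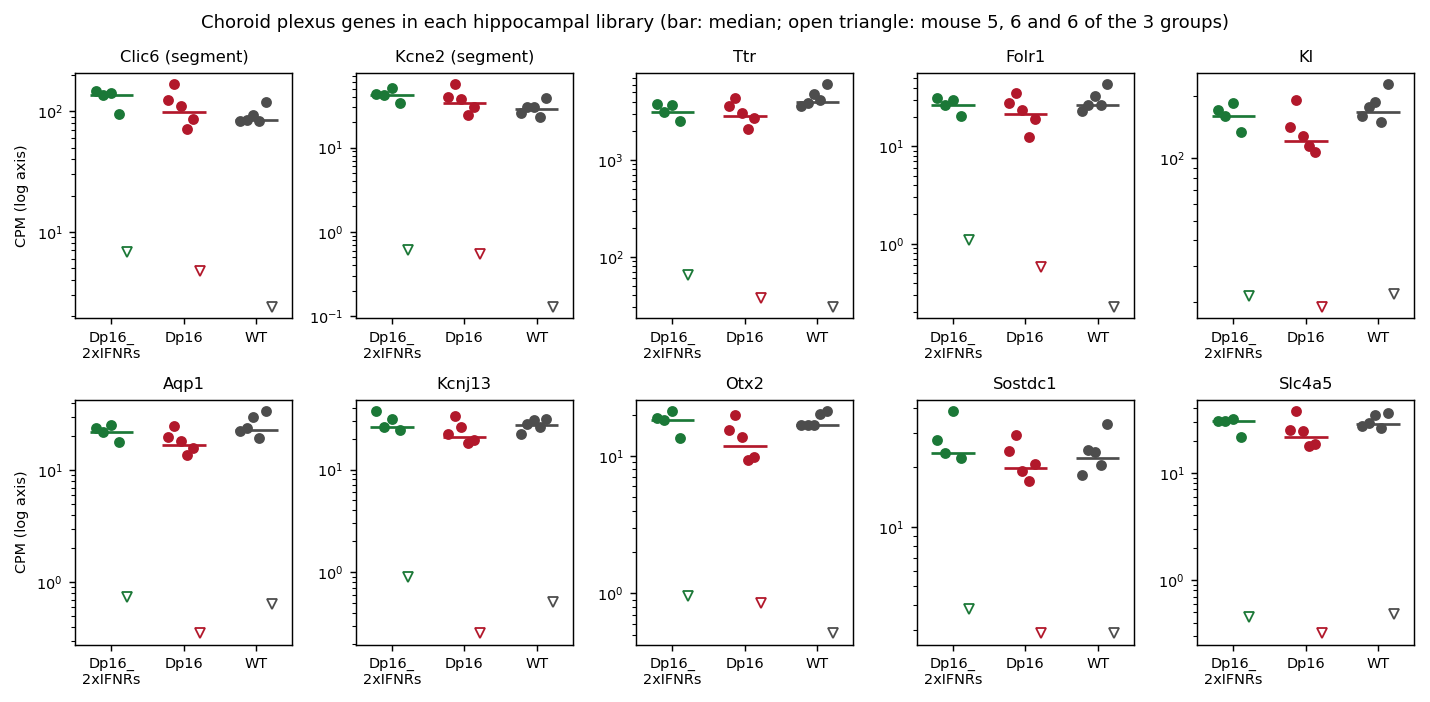
CPM of each of the 10 members in each of the 17 libraries (log axis), by group. Points are single mice, bars are group medians, and open triangles mark the 3 low libraries; the groups overlap for every member, with Clic6 from 95.8 to 148 CPM in 4 Dp16_2xIFNRs mice, 72.1 to 168 in 5 Dp16 mice and 83.4 to 120 in 5 WT mice.

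Over 17 libraries the edgeR quasi-likelihood test called 0 of the 10 members in each comparison, at an adjusted p under 0.05 over all genes. None had an unadjusted p under 0.05 either, and DESeq2 called 0. The edgeR test called 0.537% of all tested genes in Dp16 against WT, 0.98% in Dp16_2xIFNRs against WT and 0.0158% in Dp16_2xIFNRs against Dp16. The intervals were wide. In Dp16 against WT the log2 fold change of Clic6 was 0.20 ± 0.68 (SE, 95% interval -1.23 to 1.63, edgeR adjusted p = 0.951) and that of Kcne2 0.30 ± 0.75 (-1.28 to 1.88, edgeR adjusted p = 0.928). Both intervals held 0 as well as 0.58, the log2 of the copy ratio of 1.5.

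Over the 14 libraries the test again called 0 of the 10 members in each comparison, beside 0.503% of all genes in Dp16 against WT, 0.832% in Dp16_2xIFNRs against WT and 0.0209% in Dp16_2xIFNRs against Dp16. Groups were apart for none of the 10, where 2.15%, 3.95% and 1.99% of all genes had groups apart in these comparisons. In Dp16 against WT, 8 of the 10 log2 fold changes were negative and those of Clic6 (0.22 ± 0.17, edgeR adjusted p = 0.676) and Kcne2 (0.32 ± 0.17, edgeR adjusted p = 0.550) were positive. The lowest were those of Ttr at -0.53 ± 0.18 (edgeR adjusted p = 0.335) and Aqp1 at -0.51 ± 0.16 (edgeR adjusted p = 0.283). The median of the 10 was -0.38, beside -0.0075 over all tested genes. At an unadjusted p under 0.05 there were 5, all lower: Ttr, Kl, Aqp1, Otx2 and Slc4a5. The share of all genes under this unadjusted threshold is not given, here and below, so such counts are descriptions only. The members vary together, so these 5 are not separate results.

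In Dp16_2xIFNRs against WT, Clic6 was at 0.49 ± 0.18 (edgeR adjusted p = 0.242), Kcne2 at 0.54 ± 0.18 (edgeR adjusted p = 0.209) and Ttr at -0.44 ± 0.19 (edgeR adjusted p = 0.295). These 3 had an unadjusted p under 0.05, and the other 7 members lay between -0.21 and 0.22. The median of the 10 was -0.06, beside 0.0039 over all genes. In Dp16_2xIFNRs against Dp16 all 10 values were positive, from 0.09 for Ttr to 0.43 for Otx2 (median 0.27, beside -0.01 over all genes), and Kcnj13 and Otx2 had an unadjusted p under 0.05. The comparisons share their groups and are not independent of each other.

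The next comparison asked how Clic6 and Kcne2 stood at a given choroid plexus level, with the level of the 8 other members as a covariate. This level is the expression of 8 genes and not a measured amount of tissue. A fall of the 8 also raises the pair at equal level, and these cannot be told apart here. Without a level term over 14 libraries, the 8 lay between -0.53 (Ttr) and -0.12 (Sostdc1) in Dp16 against WT (log2). In Dp16_2xIFNRs against WT they lay between -0.44 (Ttr) and 0.22 (Sostdc1). At equal level both rose in Dp16_2xIFNRs and in Dp16 mice, relative to WT, by 1.51- to 1.78-fold over 17 libraries, beside a copy ratio of 1.5. The values per mouse show it. The log2 ratio of Clic6 to the 8 members averaged 1.15 ± 0.10 in Dp16_2xIFNRs mice (SD, n = 4, 1.06 to 1.26), 1.17 ± 0.09 in Dp16 mice (n = 5, 1.05 to 1.27) and 0.58 ± 0.07 in WT mice (n = 5, 0.49 to 0.68). In the low libraries it was 1.37, 1.51 and 0.51, so each duplication mouse lay above each WT mouse over all 17. Such a separation, Clic6 included, was found for 0.00527% of all genes set against the same level in Dp16 against WT and for 0.0105% in Dp16_2xIFNRs against WT, over 17 libraries, and for 1.71% and 1.41% over 14. The shares over 17 libraries are low by construction, since a gene that does not follow the level is shifted up in the low library of every group, so that nothing is read from them.

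The log2 ratio of Kcne2 to the 8 members averaged -0.46 ± 0.07 in Dp16_2xIFNRs mice (n = 4, -0.56 to -0.41), -0.39 ± 0.08 in Dp16 mice (n = 5, -0.50 to -0.30) and -1.08 ± 0.13 in WT mice (n = 5, -1.28 to -0.94). Over these 14 libraries each duplication mouse lay above each WT mouse here too. In the low libraries, where Kcne2 had 19, 17 and 4 counts, the ratio was -1.99, -1.47 and -3.16, below every other mouse of its group.

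**Figure D3:**
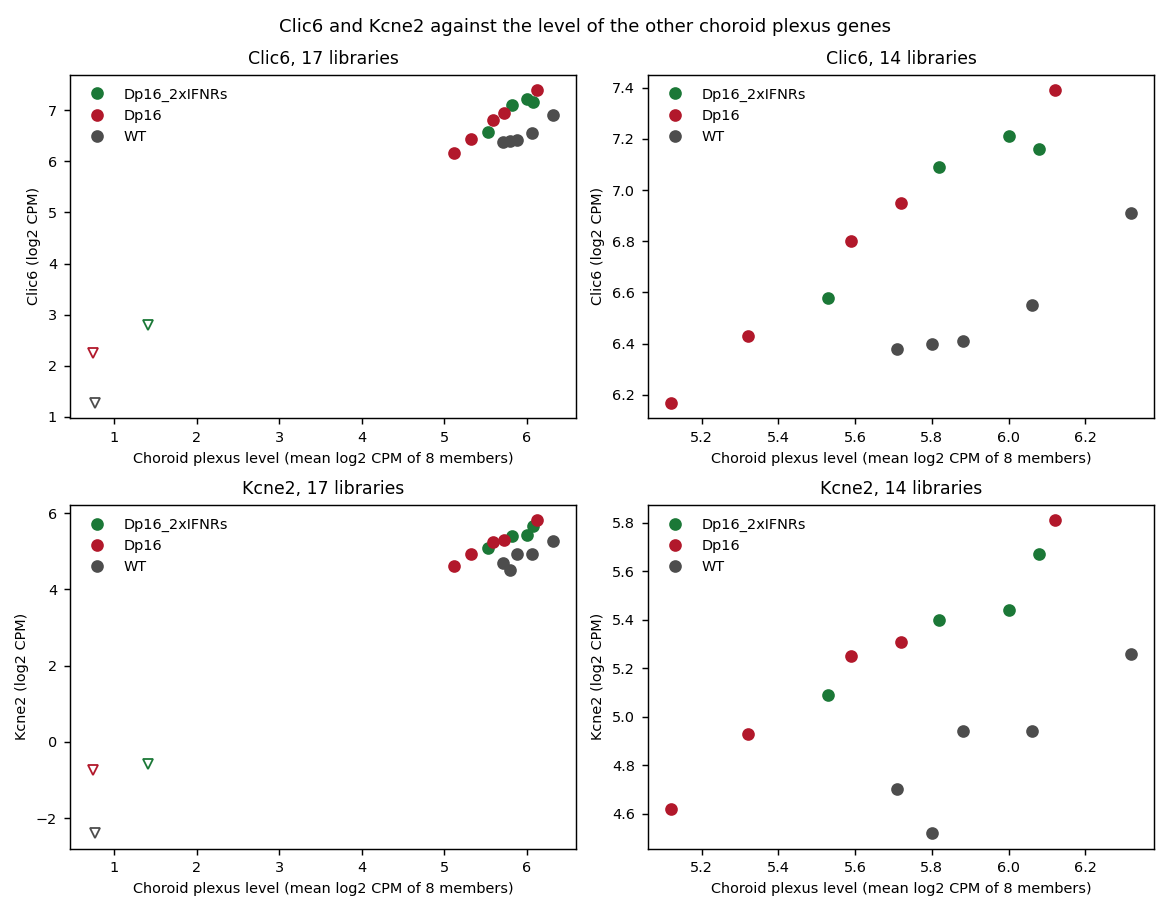
Log2 CPM of Clic6 (top) and Kcne2 (bottom) against the choroid plexus level, the mean log2 CPM of the 8 members outside the segment, in 17 libraries (left) and in the 14 without the low ones (right, narrower axes). Points are single mice and open triangles the 3 low libraries; at a given level the WT points lie below those of Dp16_2xIFNRs and Dp16 mice, as the mean log2 ratios of Clic6 (1.15, 1.17 and 0.58) and Kcne2 (-0.46, -0.39 and -1.08) state.

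In the edgeR fit with the level over 17 libraries, Clic6 rose by 0.62 ± 0.06 on the log2 scale in Dp16 against WT, or 1.54-fold (95% interval 1.42 to 1.67, edgeR adjusted p = 1.61e-06). Kcne2 rose there by 0.83 ± 0.08, or 1.78-fold (1.58 to 2.00, edgeR adjusted p = 3.99e-06). The same fit called 0.553% of all tested genes higher. In Dp16_2xIFNRs against WT, Clic6 rose 1.51-fold (1.39 to 1.64, edgeR adjusted p = 4.34e-06) and Kcne2 1.57-fold (1.39 to 1.78, edgeR adjusted p = 0.000149), where 1.04% of all genes were called higher. The interval of Kcne2 in Dp16 lay above 1.5-fold over 17 libraries. Over 14 libraries it did not, at 1.64-fold (1.46 to 1.84, edgeR adjusted p = 0.000201).

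Over the 14 libraries Clic6 was at 1.54-fold in Dp16 against WT (1.41 to 1.69, edgeR adjusted p = 0.000115), where 0.33% of all genes were called higher. In Dp16_2xIFNRs against WT it was at 1.51-fold (1.39 to 1.64, edgeR adjusted p = 4.75e-05) and Kcne2 at 1.55-fold (1.40 to 1.72, edgeR adjusted p = 0.00015), where 0.586% were. In Dp16_2xIFNRs against Dp16 neither passed. Over 17 libraries Clic6 was at 0.985-fold (0.906 to 1.07, edgeR adjusted p = 0.901) and Kcne2 at 0.885-fold (0.783 to 1.00, edgeR adjusted p = 0.438), with 0.0211% of genes called in either direction. Over 14 libraries Clic6 was at 0.977-fold (0.892 to 1.07) and Kcne2 at 0.946-fold (0.846 to 1.06), with 0.0157% called.

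Ratios to single members varied with the member chosen as denominator. In the 14 libraries the reads of Clic6 amounted to 483 ± 19.0% of those of Folr1 in Dp16_2xIFNRs mice (SD, n = 4), 485 ± 52.2% in Dp16 mice (n = 5) and 312 ± 33.9% in WT mice (n = 5). They were 3.96 ± 0.244% of those of Ttr in Dp16_2xIFNRs mice, 3.52 ± 0.262% in Dp16 mice and 2.11 ± 0.166% in WT mice. Over the 8 denominators, the fold of the mean Clic6 ratio was 1.27 to 1.67 (median 1.56) in Dp16 against WT and 1.21 to 1.88 (median 1.53) in Dp16_2xIFNRs against WT. For Kcne2 it was 1.36 to 1.78 (median 1.66) and 1.25 to 1.94 (median 1.58). The lowest fold came from Sostdc1 as the denominator and the highest from Ttr in all 4 cases. The ratio of Clic6 to Sostdc1 overlapped between groups in both comparisons with WT, as did those of Kcne2 to Sostdc1 and to Kcnj13 in Dp16_2xIFNRs against WT, and the other ratios had each duplication mouse above each WT mouse. The 8 denominators vary together, so these ratios are not separate results. The share of all genes with such a separation from a single denominator is not given.

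All 10 members could be tested when the level was taken from the 24 other choroid plexus genes, a fit added after the data were seen. Over 17 libraries 2 of the 10 were called in each comparison with WT, Clic6 and Kcne2, both higher, beside 0.664% of all genes in Dp16 and 1.68% in Dp16_2xIFNRs, and 0 in Dp16_2xIFNRs against Dp16 (0.0211% of all genes), where Kcne2 and Ttr had an unadjusted p under 0.05. Over 14 libraries Clic6 rose by 0.56 ± 0.06 (log2) and Kcne2 by 0.65 ± 0.07 in Dp16 against WT (edgeR adjusted p = 0.000124 for both), where 0.377% of all genes were called. They rose by 0.53 ± 0.06 and 0.58 ± 0.06 in Dp16_2xIFNRs against WT (edgeR adjusted p = 8.29e-05 and 0.000141), where 0.822% were.

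Ttr was the remaining member called. Over 14 libraries it fell by 0.39 ± 0.06 on the log2 scale in Dp16_2xIFNRs against WT, or to 0.763-fold (edgeR adjusted p = 0.00398). In Dp16 against WT it was at -0.18 ± 0.07 (edgeR adjusted p = 0.648), and in Dp16_2xIFNRs against Dp16 at -0.21 ± 0.07 (edgeR adjusted p = 0.385). Over 17 libraries the call was lost, with -0.25 ± 0.12 (edgeR adjusted p = 0.277). The other 7 members lay between -0.20 and 0.21 in Dp16 against WT and between -0.16 and 0.24 in Dp16_2xIFNRs against WT over 14 libraries, and none passed. Sostdc1 was the highest of these in both, and Aqp1 the lowest. Over 14 libraries 6 of the 10 members had an unadjusted p under 0.05 in Dp16 against WT: Clic6, Kcne2, Ttr, Kl, Aqp1 and Sostdc1. In Dp16_2xIFNRs against WT there were 4: Clic6, Kcne2, Ttr and Sostdc1. Over 17 libraries there were 3 in Dp16 against WT (Clic6, Kcne2 and Kl) and 4 in Dp16_2xIFNRs against WT (Clic6, Kcne2, Kl and Sostdc1).

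**Figure D4:**
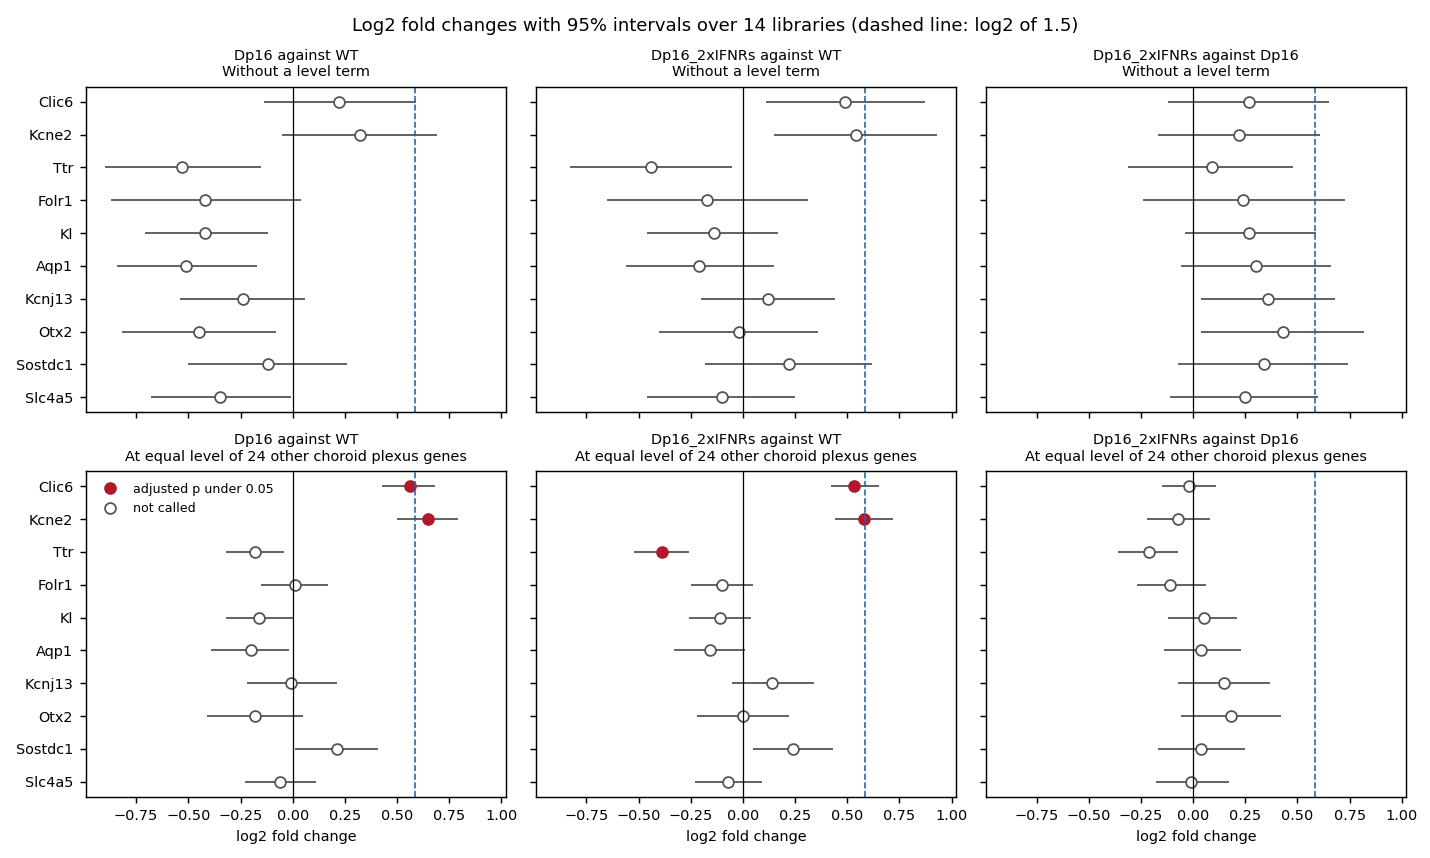
Log2 fold changes of the 10 members in the 3 comparisons over 14 libraries, without a level term (top) and at equal level of 24 other choroid plexus genes (bottom). Points are edgeR estimates, bars their 95% intervals, filled points passed an adjusted p of 0.05, and the dashed line marks 0.58, the log2 of 1.5; Clic6 and Kcne2 were called against WT at equal level, as was Ttr (-0.39) in Dp16_2xIFNRs mice.

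The 24 other choroid plexus genes served as a second set of genes outside the segment. Without a level term none was called in any of the 3 comparisons, over 17 or 14 libraries (edgeR), nor by DESeq2 over 17. At an unadjusted p under 0.05 there were 0 of 24 over 17 libraries in each comparison, and over 14 libraries 6 in Dp16 against WT, 0 in Dp16_2xIFNRs against WT and 4 in Dp16_2xIFNRs against Dp16. Over 14 libraries their median log2 fold change was -0.24 in Dp16 against WT (0 of 24 above 0), -0.03 in Dp16_2xIFNRs against WT and 0.20 in Dp16_2xIFNRs against Dp16 (24 of 24 above 0). Over all tested genes the medians were -0.0075, 0.0039 and -0.01. The 24 vary together with each other and with the members, so these counts are neither separate results nor independent of those of the members. At equal level of these 24 genes themselves, 1 of them was called over 17 libraries, the transcription factor gene Msx1, which fell by 0.43 on the log2 scale in Dp16 against WT (edgeR adjusted p = 0.0403), and none over 14. Each of the 24 helps to make the level it is set against in that fit, so nothing is read from the call of Msx1. Among 10 genes of meningeal and stromal fibroblasts, without a level term, none was called over 17 libraries by edgeR, while 6 had an unadjusted p under 0.05 in Dp16_2xIFNRs against WT, 2 in Dp16 against WT and 0 in Dp16_2xIFNRs against Dp16, and DESeq2 called 3, 0 and 0. Over 14 libraries 3 of 10 rose in Dp16_2xIFNRs against WT, beside 0.607% of all genes: Col1a2 by 0.69 (edgeR adjusted p = 0.0327), Slc6a13 by 0.90 (edgeR adjusted p = 0.0413) and Aldh1a2 by 1.01 (edgeR adjusted p = 0.0283), and the list had a median of 0.71. Over 17 libraries these 3 were at 0.60 (edgeR adjusted p = 0.183), 0.74 (edgeR adjusted p = 0.142) and 0.90 (edgeR adjusted p = 0.0906). The summed RPKM of the 10 was 59.8 to 73.4 in the 4 Dp16_2xIFNRs mice, 48.1 to 64.2 in 5 Dp16 mice and 33.3 to 54.4 in 5 WT mice. The part of these cells in the results for the members was not tested.

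The neighbours of the pair on chromosome 16 were tested in the same fit without a level term. Of 8 listed, 7 were tested, and Kcne1 was too low, with at most 0.048 RPKM. Over 17 libraries 4 rose in Dp16 against WT, beside 0.458% of all genes: Rcan1, an inhibitor of calcineurin, by 0.60 ± 0.06 (edgeR adjusted p = 2.52e-06), Mrps6 by 0.55 ± 0.10 (edgeR adjusted p = 0.0134), Cbr1, a carbonyl reductase, by 0.50 ± 0.05 (edgeR adjusted p = 5.69e-06), and Smim11 by 0.45 ± 0.09 (edgeR adjusted p = 0.0167). The count was 6 in Dp16_2xIFNRs against WT, with rises of 0.43 to 0.90, beside 0.637% of all genes. The SE of Clic6 without a level term (0.68) was larger than that of any of these neighbours, and with the level term (0.06) it equalled that of Rcan1. Mrps6 and Slc5a3 share a locus, so their counts are less certain.

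Genes that work with Kcne2 were looked at next. Of 6 listed partners, 1 rose in Dp16_2xIFNRs against WT over 17 libraries, beside 0.637% of all genes. This was Slc5a3, a myo-inositol transporter, by 0.49 ± 0.12 (edgeR adjusted p = 0.0499). It lies in the segment and is also among the neighbours above, so its call is not a separate result about partners. In Dp16 against WT 0 were called, beside 0.537% of all genes, while 2 had an unadjusted p under 0.05 and DESeq2 called 1. Kcnq1, the potassium channel best known as the partner of Kcne2, was at 0.107 to 0.356 RPKM across the libraries, and Hcn2, a pacemaker channel, at 38.3 to 58.5 RPKM. Among 8 members of the CLIC and KCNE families 0 of the 7 tested were called in either comparison with WT over 17 libraries (edgeR). In Dp16 against WT 2 of them had an unadjusted p under 0.05 and DESeq2 called 1, and in Dp16_2xIFNRs against WT 1 had such a p and DESeq2 called 0. Clic4, the most abundant of them at 21.8 to 36.2 RPKM, had a log2 fold change of 0.22 ± 0.08 in Dp16 against WT (edgeR adjusted p = 0.405). Kcne1l, named after its values were seen, had the lowest unadjusted p of the list in that comparison, at -0.51 ± 0.14 over 17 libraries (edgeR adjusted p = 0.136) and -0.63 ± 0.14 over 14 (edgeR adjusted p = 0.0735).

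Genes of fluid secretion that other brain cells also express differed in how far they followed the choroid plexus level. Slc4a2, an anion exchanger, and Car14, a carbonic anhydrase, had r = 0.971 and 0.925 with it over 17 libraries, and Slc12a2, the sodium, potassium and chloride cotransporter, 0.880. Without the 3 low libraries their r was 0.919, 0.723 and 0.783. Atp1b1, the beta subunit of a sodium pump, had r = -0.486 over 17 libraries and -0.301 without the low ones, and was abundant at 750 to 862 RPKM. None of the 8 genes was called against WT in either comparison over 17 libraries by edgeR or DESeq2, and 0 had an unadjusted p under 0.05 in Dp16 against WT and 3 in Dp16_2xIFNRs against WT.

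Sex was examined last. The choroid plexus level had a median of 5.82 (log2 CPM) in 9 females and 5.43 in 8 males, with 1 of the low libraries from a female and 2 from males. An interaction of sex with genotype was called for none of the members in either comparison with WT (edgeR), and their unadjusted p lay between 0.374 and 0.731, none under 0.05. This test used all 17 libraries, low ones included. The estimates (male minus female log2 fold change) were -1.17 to -0.55 in Dp16 against WT and 0.6 to 1.07 in Dp16_2xIFNRs against WT. Outside the low libraries, Ttr had 2090 and 2730 CPM in Dp16 males and 4170 and 6030 in WT males. In females it had 3020 to 4380 CPM in Dp16 and 3570 to 4780 in WT mice. The interaction over 14 libraries was not tested.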

How the data were processed

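Poly-A RNA of hippocampus was sequenced by the authors from 17 mice, 1 library each. The labels give every library its own mouse identifier, and each was taken as a biological replicate. The second part of the identifier, whose meaning is not given, is shared by 5 pairs of libraries of different genotypes, and its first digit is called the identifier series. The submitters' processing notes name HISAT2 2.1.0, HTSeq 0.6.1, SAMtools 1.5, FastQC 0.11.5 and bcl2fastq, on build GRCm38. The files deposited by the authors hold raw counts per gene and RPKM, from which counts and library totals gave 1 implied length per gene (20033 genes, largest relative spread 3.61e-15).

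Counts were filtered with filterByExpr (minimum count 10), scaled by TMM and fitted in edgeR 4.0.16 (R 4.3.3) by the quasi-likelihood method with genotype and sex (13 residual degrees of freedom, 12 with the choroid plexus level). Genes were called at a Benjamini-Hochberg adjusted p under 0.05 over all tested genes. A prior count of 2 entered log2 CPM. The common biological coefficient of variation was 14.1%. The segment was taken as chromosome 16 from Lipi to Zbtb21, with 122 of its 384 genes tested. A library was set apart when its level lay over 4-fold under the median library. Correlations used 100000 permutations.

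The members and gene lists were chosen with earlier results of these data known. Named are the members, the 10 genes most like them, and called or abundant genes of each list. Alternatives were DESeq2 1.42.0, other scalings, filters, covariates and level definitions, a replicate block, limma 3.58.1 on log2(RPKM + 0.1) or log2(RPKM + 1), and leaving out each library. Leaving out the 3 low libraries was added after seeing the data, as were testing all members at the level of other choroid plexus genes and a limma-voom fit with shared identifier numbers as a random block. The values of 1 listed gene are not reported here. Figures were drawn with matplotlib 3.10.9.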

Additional observations from a re-analysis of the deposited data

Results flagged for a closer look

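In every group, the lowest library stood apart from the rest for each member. The gap between the lowest library and the next, as a share of the group's whole range of log2 CPM, exceeded the 95% limit for its size in all 30 combinations of member and genotype, where chance gives about 1 in 20 for a single group. These are not 30 separate findings: the members vary together, and the 3 libraries were set apart by the level of 8 of these same genes. The low library was Dp16_2xIFNRs mouse 5, Dp16 mouse 6 or WT mouse 6 each time.

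For the triplicated pair the share of the range was 0.858 in Dp16_2xIFNRs, 0.763 in Dp16 and 0.907 in WT for Clic6, and 0.908, 0.818 and 0.903 in the same groups for Kcne2. For the secreted or signalling members it was 0.904, 0.844 and 0.901 for Ttr, 0.847, 0.752 and 0.822 for Kl, and 0.761, 0.765 and 0.754 for Sostdc1. For the transporters and channels it was 0.870, 0.745 and 0.875 for Folr1, 0.9, 0.855 and 0.853 for Aqp1, 0.885, 0.869 and 0.919 for Kcnj13, and 0.906, 0.836 and 0.924 for Slc4a5. For Otx2 it was 0.852, 0.753 and 0.933.

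The log2 ratio of Kcne2 to the 8 members also had its lowest value in these libraries, with shares of 0.905 in Dp16_2xIFNRs, 0.829 in Dp16 and 0.847 in WT. Kcne2 had 19, 17 and 4 counts there. The same ratio of Clic6 was not set apart in any group, so 33 of 36 group values were.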

How the results depend on the processing

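The count of members called without a level term stayed at 0 under every alternative in all 3 comparisons. At equal choroid plexus level, Clic6 and Kcne2 stayed called against WT under every alternative that could be fitted. Excluding libraries left out singly, log2 fold changes were 0.56 to 0.64 (Clic6) and 0.65 to 0.88 (Kcne2) in Dp16 against WT, and 0.53 to 0.78 and 0.50 to 0.96 in Dp16_2xIFNRs against WT, the highest values of both from Ttr alone as the level. The highest adjusted p was 0.0358, for Kcne2 in Dp16_2xIFNRs against WT with the replicate number as a block. In Dp16_2xIFNRs against Dp16, values turned positive with the level from Ttr alone, at 0.16 for Clic6 and 0.10 for Kcne2, and Clic6 lay between -0.04 and 0.01 on leaving out each library, the 0.01 without Dp16 mouse 6; none passed, and the cause was not tested. The correlation with Ttr passed for Clic6 (0.954) and Kcne2 (0.901) as deviations from genotype means, which by construction removes differences between genotypes.

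Log2 fold changes of single members without a level term changed sign more often, none of them called. In Dp16_2xIFNRs against WT, Kcnj13 was at -0.04 with the identifier series as a covariate, -0.06 on log2(RPKM + 0.1) and -0.07 on log2(RPKM + 1). With the replicate block it was at -0.60, Clic6 at -0.21, Kcne2 at -0.25 and Sostdc1 at -0.31. In Dp16_2xIFNRs against Dp16, the block gave -0.45 for Clic6, -0.56 for Kcne2, -0.83 for Ttr, -0.40 for Folr1, -0.26 for Kl, -0.34 for Aqp1, -0.31 for Kcnj13, -0.26 for Otx2, -0.17 for Sostdc1 and -0.48 for Slc4a5. Number 6 occurs in Dp16 and WT alone, and both libraries of that number are among the low ones. With shared identifier numbers as a random block in limma-voom, Kcne2 was at -0.15 and Kcnj13 at -0.49 in Dp16_2xIFNRs against WT, and in Dp16_2xIFNRs against Dp16 Clic6 was at -0.03, Kcne2 at -0.68, Ttr at -0.07, Folr1 at -0.41, Aqp1 at -0.28, Kcnj13 at -0.20, Otx2 at -0.13 and Slc4a5 at -0.57; the cause was not tested. Deviations of the 5 pairs that share an identifier number had a mean correlation of 0.0126, other pairs 0.000473. On log2(RPKM + 0.1), Kcne2 was at -0.08 and Ttr at -0.07 in Dp16_2xIFNRs against Dp16, and on log2(RPKM + 1) at -0.01 and -0.07. Deviations of 16 pairs with the same replicate number had a mean correlation of 0.0772, other pairs -0.0141, and 5 of 17 libraries correlated best with their own number. No expectation for these values is given, so they cannot decide whether the replicate numbers pair the samples.

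Leaving out each library gave these lowest and highest values where a sign changed. In Dp16 against WT they were -0.03 and 0.48 for Clic6, -0.50 and 0.02 for Kcnj13, and -0.35 and 0.11 for Sostdc1. In Dp16_2xIFNRs against WT they were -0.49 and 0.15 for Folr1, -0.42 and 0.11 for Kl, -0.52 and 0.08 for Aqp1, -0.19 and 0.40 for Kcnj13, -0.36 and 0.25 for Otx2, -0.15 and 0.48 for Sostdc1, and -0.43 and 0.18 for Slc4a5. In Dp16_2xIFNRs against Dp16 they were -0.04 and 0.59 for Clic6, -0.10 and 0.56 for Kcne2, -0.23 and 0.42 for Ttr, -0.06 and 0.58 for Folr1, -0.01 and 0.62 for Aqp1, and -0.07 and 0.57 for Slc4a5.

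Low counts limit some members in the 3 low libraries, where Kcne2 had 4 to 19 counts and Ttr 947 to 2035. The total counts of these libraries lay within the range of the other 14.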
